A study of Mus musculus with 16 samples.

Results

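The genes described here are 39 proliferation genes, chosen by name because their products copy DNA or divide the cell, and they were followed through the lungs of adult mice that had met second-hand smoke before birth, in adult life, or both. Of the 39 genes, 38 had a probe set that carries their symbol alone, out of 18193 genes with such a named probe set. Ccnb1, which encodes cyclin B1, was matched to none by its symbol and has no value here. Probe sets with several symbols were not used, so this does not show that the array lacks Ccnb1. Each gene was read at 1 probe set, the one with the highest mean over the 16 arrays, and the genes fell into 8 role groups. Most are made mainly in dividing cells, and some, such as Pcna and Rrm1, are also transcribed in cells that are not dividing.

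Left lungs were taken from male Balb/c mice aged 15 weeks, and their total RNA was measured on Affymetrix mouse 430 2.0 arrays. The smoke came from the burning side of cigarettes (sidestream smoke, standing for second-hand smoke or SHS) and carried 10 mg/m3 of suspended particles. Exposure lasted 5 hours daily, 7 days per week, and the controls breathed filtered air. The 4 groups of 4 arrays are written with the exposure in utero first and the adult exposure second. AA had filtered air at both times, AS had air in utero and SHS as adults, SA had SHS in utero and air as adults, and SS had SHS at both times. All animals shared the strain, sex, age and tissue, and no transgene or other agent is named. The labels call the replicates separate animals and give no litter, batch or date, so none could be entered into a fit.

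Cells divide by a fixed order of steps. In late G1 and S phase, E2F transcription factors switch on the genes for replication licensing and nucleotide supply, and in G2 and mitosis a second wave follows, in which the DREAM and MuvB complexes, B-MYB and FOXM1 act at promoters through CHR elements and CCAAT boxes. In the healthy adult lung few cells divide, among them alveolar type 2 cells, endothelial cells, resident macrophages and lymphocytes, and Mki67 and Top2a are the usual marks of such cells.

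The array medians of the deposited values lay between 6.9 and 6.93 on the log2 scale, which does not by itself show that the arrays are alike. AS replicates 3 and 4, and SS replicates 1 and 2, were so alike that the step between them was close to array noise, and each pair was averaged. Whether the arrays of a pair came from the same lung was not tested. The 14 samples that remain are 4 from AA, 3 from AS, 4 from SA and 3 from SS. At stable probe sets, AS replicates 3 and 4 stood farther from AS replicates 1 and 2 than other arrays of a group did from each other. Lung markers were high in every sample, with Sftpc, the surfactant protein C gene of alveolar type 2 cells, between 15.01 and 15.10 and Scgb1a1 of club cells between 14.91 and 14.98. Genes of other organs gave low but not zero values, such as Umod at 3.04 to 3.36 and Prm1 at 6.72 to 7.14, so a low reading does not by itself show expression. These arrays read RNA from the whole lobe, where more cells of a type and more RNA per cell cannot be told apart. In what follows, values are log2 probe set values, a difference of 1 is 2-fold, the values of a group are given in the order of its replicates with each averaged pair as 1 value, and a level is compared only with the same gene's level in another sample.

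SA replicate 4, a mouse exposed in utero and kept in air as an adult, stood apart from the other 13 samples over most of the proliferation genes. It had the highest value of all 14 samples for 35 of the 38 genes, where 9.07% of all genes had their highest value in it. It was more than 0.5 above the mean of the other 13 samples for 25 of the 38 genes, against 1.50% of all genes, and more than 1 above it for 14 of the 38, against 0.341% of all genes. The mean of the 38 genes relative to AA was 0.83 in SA replicate 4, and between -0.08 and 0.09 in the other 13 samples. The other 3 SA samples had -0.03, -0.01 and -0.04. Since this is 1 sample of a group of 4, its height carries no test of an exposure, and the results below are given with and without it.

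**Figure D1:**
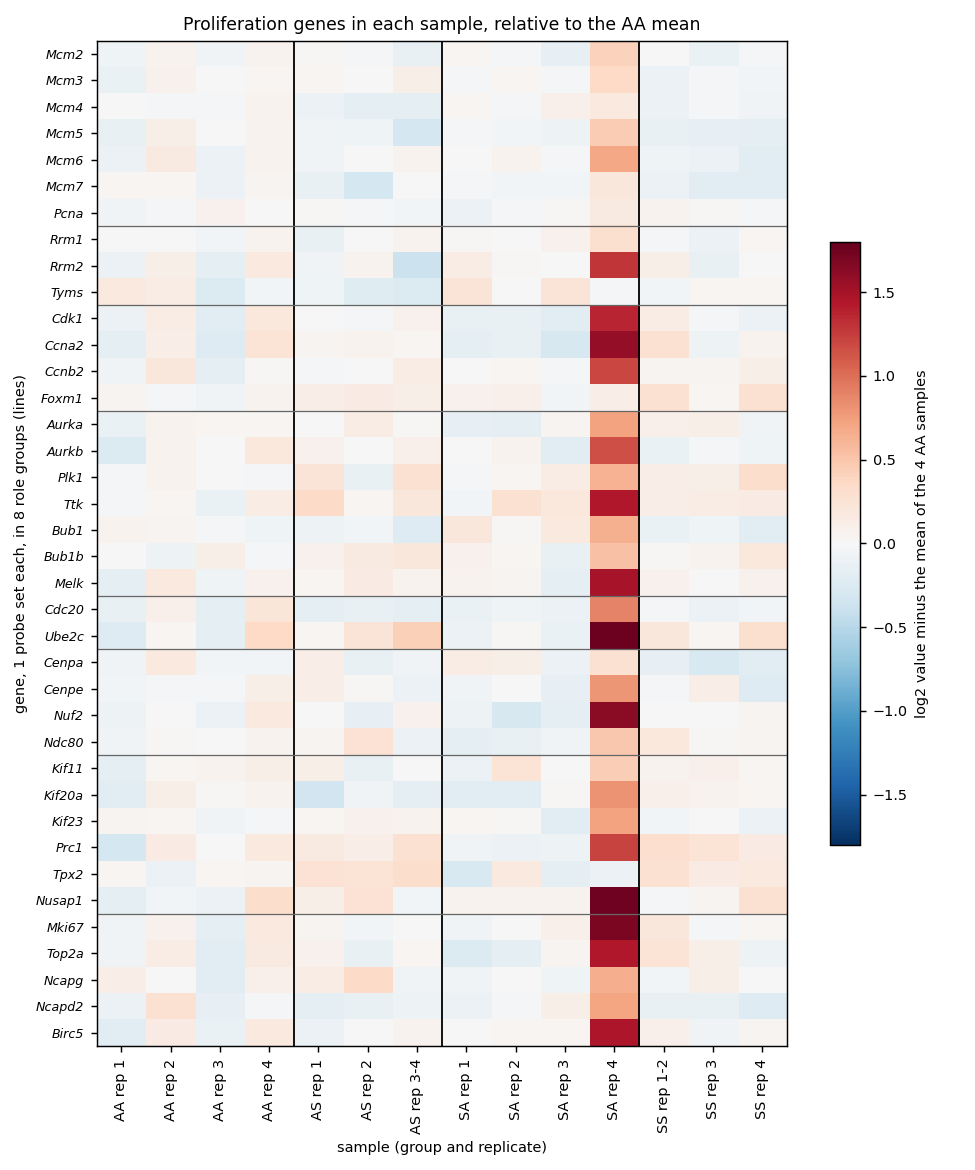
Each square is a gene's log2 value in a sample minus the mean of the 4 AA samples, with the 38 genes in rows by role and the 14 samples in columns by group. The column of SA replicate 4 is red for most genes. It is pale for Tyms, Foxm1 and Tpx2 and for some others such as Pcna and Mcm4, and the other 13 columns stay pale.

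Ranked over all 18193 genes by the height of SA replicate 4 above the other samples, 14 of the first 50 genes were from the 38. The first of them, Nusap1, stood at rank 11, behind red cell genes such as Slc4a1, Trim10 and Alas2 among others, and close to other division genes such as Esco2 and Pbk. Over the other 13 samples the spread of a gene from lowest to highest ran from 0.19 for Pcna to 0.66 for Ube2c, with a median over the genes of 0.41. Within AA, replicates 2 and 4 were both above replicates 1 and 3 for 25 of the 38 genes, against 20.16% of all genes. The reverse held for 1 of the 38. This split carries no test.

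The promoters of 4 genes that stood more than 1 higher in SA replicate 4 (Cdk1, Ccnb2, Ube2c and Mki67) are shown beside that of Mcm6, which was 0.73 higher, and that of Tyms, which was level with the other samples. They are RefSeq windows of the build GRCm38.p6, 300 bases long with 250 before the start site and 50 after it, written on the gene's own strand. Capitals mark the cell cycle homology region or CHR (TTTGAA or TTCGAA), the CCAAT box (CCAAT) and an E2F motif (TTTCGCGC, TTTGGCGC or TTTCCCGC), each on either strand, so that TTCAAA and ATTGG are marked too.
Cdk1, chr10:69352863-69353162, minus strand: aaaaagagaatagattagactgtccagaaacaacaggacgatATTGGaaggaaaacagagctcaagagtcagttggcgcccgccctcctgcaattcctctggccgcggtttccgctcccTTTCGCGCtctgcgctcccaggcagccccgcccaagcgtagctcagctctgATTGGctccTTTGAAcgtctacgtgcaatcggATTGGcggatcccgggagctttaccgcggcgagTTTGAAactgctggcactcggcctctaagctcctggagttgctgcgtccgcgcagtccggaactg
Ccnb2, chr9:70421505-70421804, minus strand: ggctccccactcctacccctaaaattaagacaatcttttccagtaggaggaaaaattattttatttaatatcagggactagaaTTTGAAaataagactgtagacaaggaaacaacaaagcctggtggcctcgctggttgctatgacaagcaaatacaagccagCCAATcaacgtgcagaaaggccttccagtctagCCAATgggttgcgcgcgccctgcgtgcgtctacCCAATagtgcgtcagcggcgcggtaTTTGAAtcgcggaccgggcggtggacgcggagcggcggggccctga
Ube2c, chr2:164769679-164769978, plus strand: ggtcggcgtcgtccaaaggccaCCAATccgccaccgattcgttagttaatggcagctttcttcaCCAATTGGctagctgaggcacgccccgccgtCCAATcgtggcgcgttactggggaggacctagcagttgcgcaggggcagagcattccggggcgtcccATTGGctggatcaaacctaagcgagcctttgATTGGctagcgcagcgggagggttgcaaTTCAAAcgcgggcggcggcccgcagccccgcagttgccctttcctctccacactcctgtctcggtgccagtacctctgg
Mki67, chr7:135716330-135716629, minus strand: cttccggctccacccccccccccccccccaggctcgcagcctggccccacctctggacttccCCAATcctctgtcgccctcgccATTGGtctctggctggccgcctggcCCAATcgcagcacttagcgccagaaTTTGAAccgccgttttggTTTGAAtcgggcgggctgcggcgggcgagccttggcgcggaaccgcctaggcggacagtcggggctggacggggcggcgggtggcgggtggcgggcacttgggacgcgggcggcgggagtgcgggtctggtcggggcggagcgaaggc
Mcm6, chr1:128359656-128359955, minus strand: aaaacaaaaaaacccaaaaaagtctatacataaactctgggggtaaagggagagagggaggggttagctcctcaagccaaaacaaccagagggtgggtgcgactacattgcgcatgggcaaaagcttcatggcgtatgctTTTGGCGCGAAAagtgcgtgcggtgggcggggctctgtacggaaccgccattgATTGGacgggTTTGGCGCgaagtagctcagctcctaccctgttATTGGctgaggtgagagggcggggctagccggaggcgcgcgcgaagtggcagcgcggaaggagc
Tyms, chr5:30073576-30073875, minus strand: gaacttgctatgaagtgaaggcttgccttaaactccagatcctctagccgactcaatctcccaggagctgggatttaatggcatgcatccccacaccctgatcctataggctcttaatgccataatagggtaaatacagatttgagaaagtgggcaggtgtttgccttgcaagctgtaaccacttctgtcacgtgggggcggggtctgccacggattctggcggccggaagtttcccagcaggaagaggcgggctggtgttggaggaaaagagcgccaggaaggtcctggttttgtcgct

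The window of Cdk1 held 2 CHR letters, 3 CCAAT boxes and 1 E2F motif, that of Ccnb2 held 2 CHR and 3 CCAAT, that of Ube2c held 1 CHR and 6 CCAAT, and that of Mki67 held 2 CHR and 3 CCAAT. In Ube2c, 2 of the CCAAT boxes overlap on opposite strands, and in Mcm6 the first 2 of its 3 E2F motifs overlap. Mcm6 had 2 CCAAT boxes and no CHR, and the Tyms window held none of the 3 motifs. The windows shown do not stand for all genes that were more than 1 higher in SA replicate 4. Of such genes with a window, 7 had CHR letters and 5 did not. Nusap1, the highest of the 38, had none of the 3 motifs and is not shown. Windows were given for 33 of the 39 genes, and Ccna2, Aurkb, Foxm1, Kif20a, Mcm4 and Tpx2 had none. The CHR letters were in 20 of 33 genes (60.6%), against 21.7% of all 27025 genes with a window. A CCAAT box was in 27 of 33 (81.8% against 41.1%), both together in 19 of 33 (57.6% against 8.6%), and an E2F motif in 7 of 33 (21.2% against 2.1%). The windows of these genes were richer in G and C than others (median 58.7% against 52.7%), and a match of letters is not a bound site.

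By role, an E2F motif was in 4 of 6 replication genes, and CHR letters in 5 of 6 mitotic kinase and checkpoint genes and both anaphase promoting complex genes, with none in the 3 nucleotide supply genes. The height in SA replicate 4 was also read by CHR letters, which are unevenly spread over the roles. The 20 genes with CHR letters had a median of 0.73 above the other samples (0.29 to 1.68). The 12 measured genes with a window but without those letters had a median of 0.77 (-0.03 to 1.69). Nusap1, Nuf2, Melk and Birc5, whose windows held none of the 3 motifs, were 1.69, 1.66, 1.45 and 1.44 higher, and Tyms, which also held none, was at -0.03. The part of these motifs in the height was not tested.

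The replication genes stood only a little higher in SA replicate 4. Mcm2 to Mcm7 encode the 6 subunits of the MCM helicase, which is loaded on origins before S phase, and Pcna encodes the sliding clamp of the replication fork. Pcna, which also serves DNA repair, read 11.94, 11.96, 12.08 and 12.01 in AA, 12.02, 11.98 and 11.95 in AS, 11.89, 11.97, 12.02 and 12.16 in SA, and 12.06, 12.02 and 11.96 in SS. The groups overlapped, and SA replicate 4 was the highest sample by a small step. Mcm6 read 8.09, 8.35, 8.08 and 8.26 in AA, 8.12, 8.18 and 8.25 in AS, 8.20, 8.25, 8.15 and 8.89 in SA, and 8.11, 8.08 and 7.99 in SS. Here SA replicate 4 stood clear of all others, and each SS sample was below each SA sample. Over the 7 genes, SA replicate 4 was the highest sample in 7, with distances from the mean of the other 13 samples of 0.17 (Pcna) to 0.73 (Mcm6) and a median of 0.37.

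Nucleotide supply was mixed. Rrm1 and Rrm2 encode the large and the small subunit of ribonucleotide reductase, of which the small one is made in S phase, and Tyms encodes thymidylate synthase. Rrm2 read 7.49, 7.70, 7.44 and 7.77 in AA, 7.53, 7.67 and 7.21 in AS, 7.74, 7.62, 7.60 and 8.88 in SA, and 7.71, 7.46 and 7.59 in SS. SA replicate 4 was 1.30 above the mean of the others, a 2.46-fold difference, while the 4 groups otherwise overlapped. Rrm1 read 8.92, 8.91, 8.87 and 8.98 in AA, 8.79, 8.92 and 8.99 in AS, 8.94, 8.91, 9.0 and 9.21 in SA, and 8.90, 8.82 and 8.96 in SS, so SA replicate 4 was the highest sample, 0.29 above the mean of the other 13. Tyms, at 5.56 in SA replicate 4 and 5.35 to 5.83 in the others, was within their range. Its 3 other probe sets, with means of 3.73 to 4.11, did not place SA replicate 4 above the other samples either. Whether these low-reading probe sets detect Tyms in these lungs was not tested.

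Among the cyclins and their partners the height of SA replicate 4 was larger. Cdk1 encodes the kinase that drives entry into mitosis, Ccna2 and Ccnb2 encode cyclins A2 and B2 that activate it, and Foxm1 encodes a transcription factor of G2 and mitotic genes. Ccna2 read 7.00, 7.28, 6.93 and 7.41 in AA, 7.21, 7.23 and 7.20 in AS, 6.98, 7.03, 6.87 and 8.74 in SA, and 7.43, 7.07 and 7.22 in SS. The other 3 SA samples were among the lowest, below every AS and every SS sample, and SA replicate 4 was 1.59 above the mean of the other 13 (3.02-fold). Cdk1 was 1.40 and Ccnb2 1.18 above it. Foxm1 did not follow, with 7.17 in SA replicate 4 and 6.98 to 7.33 elsewhere, the highest being the averaged SS replicates 1 and 2. Its 3 other probe sets gave distances of 0.16, 0.06 and -0.03.

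All 7 mitotic kinase and checkpoint genes had their highest value in SA replicate 4, which was 0.48 (Bub1b) to 1.45 (Melk) above the mean of the other 13 samples, with a median of 0.73. Aurka and Aurkb encode Aurora kinases, Plk1 encodes Polo-like kinase 1, Ttk, Bub1 and Bub1b encode proteins of the spindle checkpoint, and Melk encodes a kinase made in dividing cells. Melk read 5.19, 5.54, 5.29 and 5.45 in AA, 5.41, 5.52 and 5.43 in AS, 5.44, 5.42, 5.21 and 6.85 in SA, and 5.45, 5.37 and 5.45 in SS. Bub1 read 6.70, 6.69, 6.61 and 6.56 in AA, 6.55, 6.59 and 6.41 in AS, 6.84, 6.66, 6.82 and 7.28 in SA, and 6.52, 6.56 and 6.45 in SS. Melk was flat outside SA replicate 4, whereas all 4 SA samples had more Bub1 than any SS sample. The other distances were 1.33 for Ttk, 1.17 for Aurkb, 0.73 for Aurka, 0.66 for Bub1 and 0.54 for Plk1.

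Both genes of the anaphase promoting complex pathway stood high there. Cdc20 encodes the activator of that ubiquitin ligase and Ube2c its conjugating enzyme. Ube2c read 6.89, 7.16, 6.95 and 7.48 in AA, 7.15, 7.35 and 7.55 in AS, 7.01, 7.14, 7.00 and 8.88 in SA, and 7.32, 7.16 and 7.41 in SS. Cdc20 read 8.22, 8.45, 8.18 and 8.58 in AA, 8.18, 8.23 and 8.18 in AS, 8.24, 8.28, 8.25 and 9.25 in SA, and 8.32, 8.25 and 8.31 in SS. AA replicate 4 was the next highest for Cdc20, and the averaged AS replicates 3 and 4 for Ube2c, at some distance below SA replicate 4 (0.97 for Cdc20 and 1.68 for Ube2c, against the mean of the others).

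The 4 centromere and kinetochore genes spread widely. Cenpa encodes the histone variant of the centromere, Cenpe a kinetochore motor, and Nuf2 and Ndc80 parts of the complex that grips microtubules. Nuf2 read 5.56, 5.65, 5.55 and 5.83 in AA, 5.66, 5.50 and 5.73 in AS, 5.56, 5.36, 5.48 and 7.27 in SA, and 5.64, 5.66 and 5.70 in SS, so SA replicate 4 was 1.66 higher (3.16-fold). Cenpa read 7.69, 7.92, 7.70 and 7.70 in AA, 7.87, 7.62 and 7.68 in AS, 7.88, 7.86, 7.64 and 8.03 in SA, and 7.60, 7.48 and 7.55 in SS. For Cenpa SA replicate 4 was only 0.32 above the others, and the 3 SS samples were the lowest of all 14. Cenpe and Ndc80 were 0.82 and 0.48 higher in SA replicate 4.

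Of the 6 spindle genes, 5 were highest in SA replicate 4. Kif11, Kif20a and Kif23 encode kinesin motors, Prc1 and Nusap1 encode proteins that bundle microtubules, and Tpx2 encodes the spindle protein that activates Aurora A. Nusap1, with the largest distance of all 38 genes, read 7.28, 7.41, 7.36 and 7.78 in AA, 7.56, 7.72 and 7.41 in AS, 7.52, 7.53, 7.53 and 9.21 in SA, and 7.42, 7.51 and 7.73 in SS. SA replicate 4 was 1.69 above the mean of the other 13, or 3.23-fold, and the other 3 SA samples lay within 0.01 of each other. Prc1 was 1.13, Kif20a 0.87, Kif23 0.73 and Kif11 0.42 higher.

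Tpx2 lay within the range of the others in SA replicate 4 at the probe set read here, with a distance of -0.20. Its probe sets disagreed: 1428104_at (mean 5.60) put SA replicate 4 at 6.86 against 5.24 to 5.75, a distance of 1.36, and 1428105_at put it 0.48 higher. The 2 remaining probe sets, 1447518_at, which is the one read here, and 1447519_x_at, gave -0.20 and -0.03, so the probe set chosen decides where Tpx2 stands. Over all 38 genes there were 86 probe sets, of which 59 had their highest value in SA replicate 4. Of the 27 genes with several probe sets, 6 had all of them more than 0.5 higher in SA replicate 4, 14 had some and 7 had none.

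All 5 genes of chromosome structure had their highest value in SA replicate 4. Mki67 encodes the Ki-67 protein that coats mitotic chromosomes, Top2a encodes topoisomerase II alpha, Ncapg and Ncapd2 encode condensin subunits, and Birc5 encodes survivin of the chromosomal passenger complex. Mki67 read 7.66, 7.81, 7.56 and 7.90 in AA, 7.78, 7.68 and 7.74 in AS, 7.67, 7.73, 7.82 and 9.42 in SA, and 7.93, 7.71 and 7.77 in SS. Before averaging, the arrays of AS replicates 3 and 4 read 7.73 and 7.74, and those of SS replicates 1 and 2 read 7.97 and 7.90. The distance of 1.67 (3.19-fold) made the SA mean 8.16 ± 0.84 (SD, n = 4), against 7.73 ± 0.15 (SD, n = 4) in AA, 7.73 ± 0.05 (SD, n = 3) in AS and 7.80 ± 0.12 (SD, n = 3) in SS, and the other 3 SA samples had 7.74 ± 0.08 (SD). Top2a was 1.45, Birc5 1.44, Ncapd2 0.79 and Ncapg 0.64 higher.

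**Figure D2:**
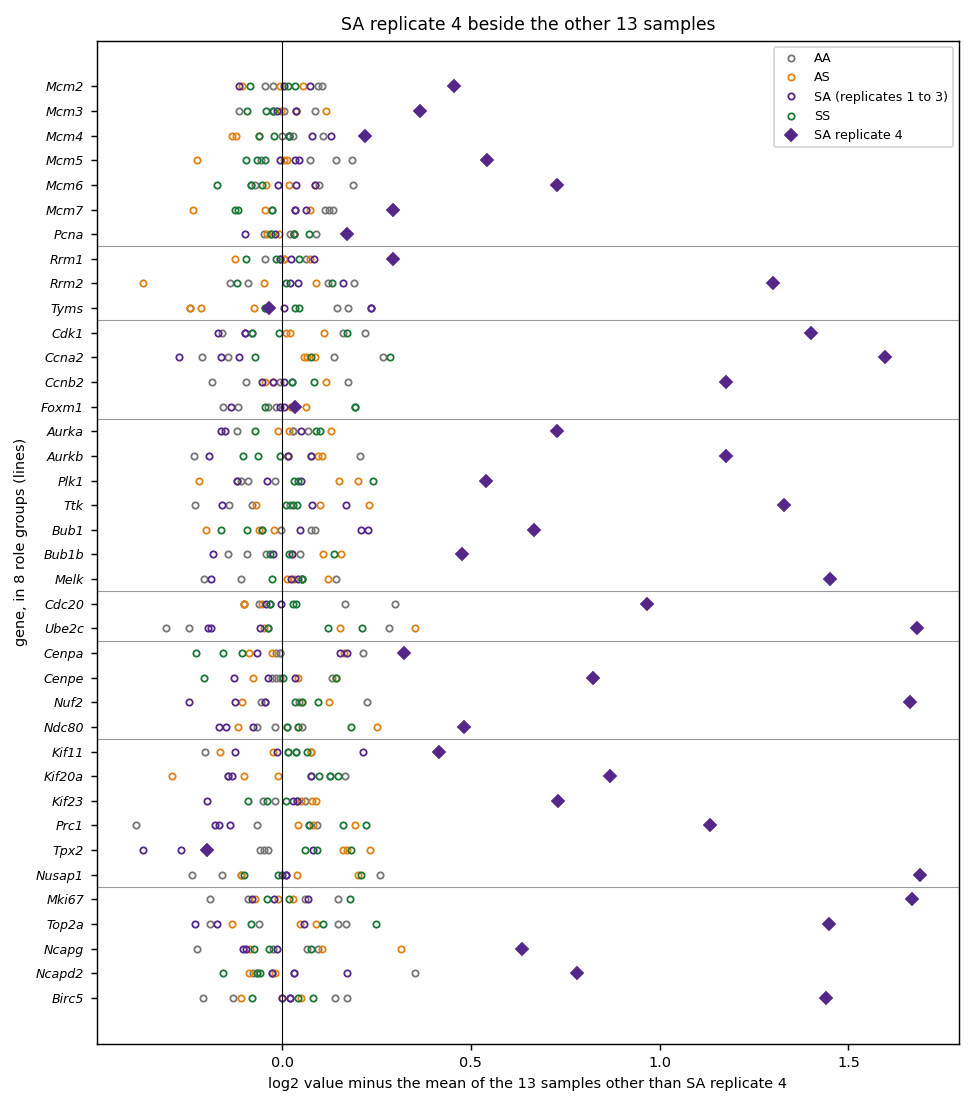
Points are log2 values minus the mean of the 13 samples other than SA replicate 4, for 38 genes in 8 role groups, with open circles for those 13 samples and a diamond for SA replicate 4. The diamonds lie farthest right for Nusap1 (1.69), Ube2c (1.68) and Mki67 (1.67) and within the circles for Tyms, Foxm1 and Tpx2.

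Set side by side, the 10 replication and nucleotide supply genes had a median distance of 0.33 and the 28 others one of 0.92, with more than 1 reached by 1 of 10 and 13 of 28. Gene lists that hold none of the 38 gave a like order. Of 39 other G1/S and replication genes, 28 had their highest value in SA replicate 4 and 11 were more than 0.5 higher (median 0.25), led by Dtl (1.19), a ubiquitin ligase subunit of S phase, and Uhrf1 (1.02), which maintains DNA methylation. Of 52 other G2/M and mitosis genes, 38 had their highest value in it and 29 were more than 0.5 higher (median 0.52), led by Esco2 (1.78), which joins sister chromatids, and Cep55 (1.54), which acts when daughter cells part. None of the 5 G1 cyclins and kinases (Ccnd1, Ccnd2, Ccnd3, Cdk4 and Cdk6) and none of the 7 CDK inhibitors had its highest value there.

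Markers of other cells moved with the proliferation genes in SA replicate 4. Of 15 erythroid markers 14 had their highest value in it, with Slc4a1, the band 3 anion exchanger of red cells, at 10.87 against 6.26 to 8.52, Trim10 at 9.61 against 6.24 to 7.75 and Alas2, the first enzyme of red cell haem synthesis, at 11.95 against 8.41 to 11.10. The mean of that list over samples was 5.54 to 5.98 in AA, 5.98 to 6.10 in AS, 5.69 to 6.89 in SA and 5.65 to 6.05 in SS. Of 6 megakaryocyte and platelet markers, 4 had their highest value in it, with list means of 7.40 to 8.09 in AA, 8.04 to 8.42 in AS, 7.94 to 8.63 in SA and 7.81 to 8.20 in SS. The part of these cells in the height of the proliferation genes was not tested.

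Over the other 13 samples the mean of the erythroid list relative to AA ran from -0.19 to 0.37 and that of the proliferation genes from -0.08 to 0.09. Relative to AA, SA replicate 4 had -0.18 for T cell markers, -0.20 for B and plasma cell markers, -0.06 for thymocyte markers, 0.02 for germinal centre B cell markers, 0.01 for neutrophil precursors, -0.42 for mature neutrophils, 0.08 for alveolar macrophages, -0.11 for mast cells and basophils and -0.04 for lung epithelium and endothelium. For 10 genes of other organs the mean relative to AA was 0.03 there. Of the 9 thymocyte markers, 1 had its highest value in SA replicate 4. Their distances from the mean of the other 13 samples ran from -0.36 to 0.23.

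**Figure D3:**
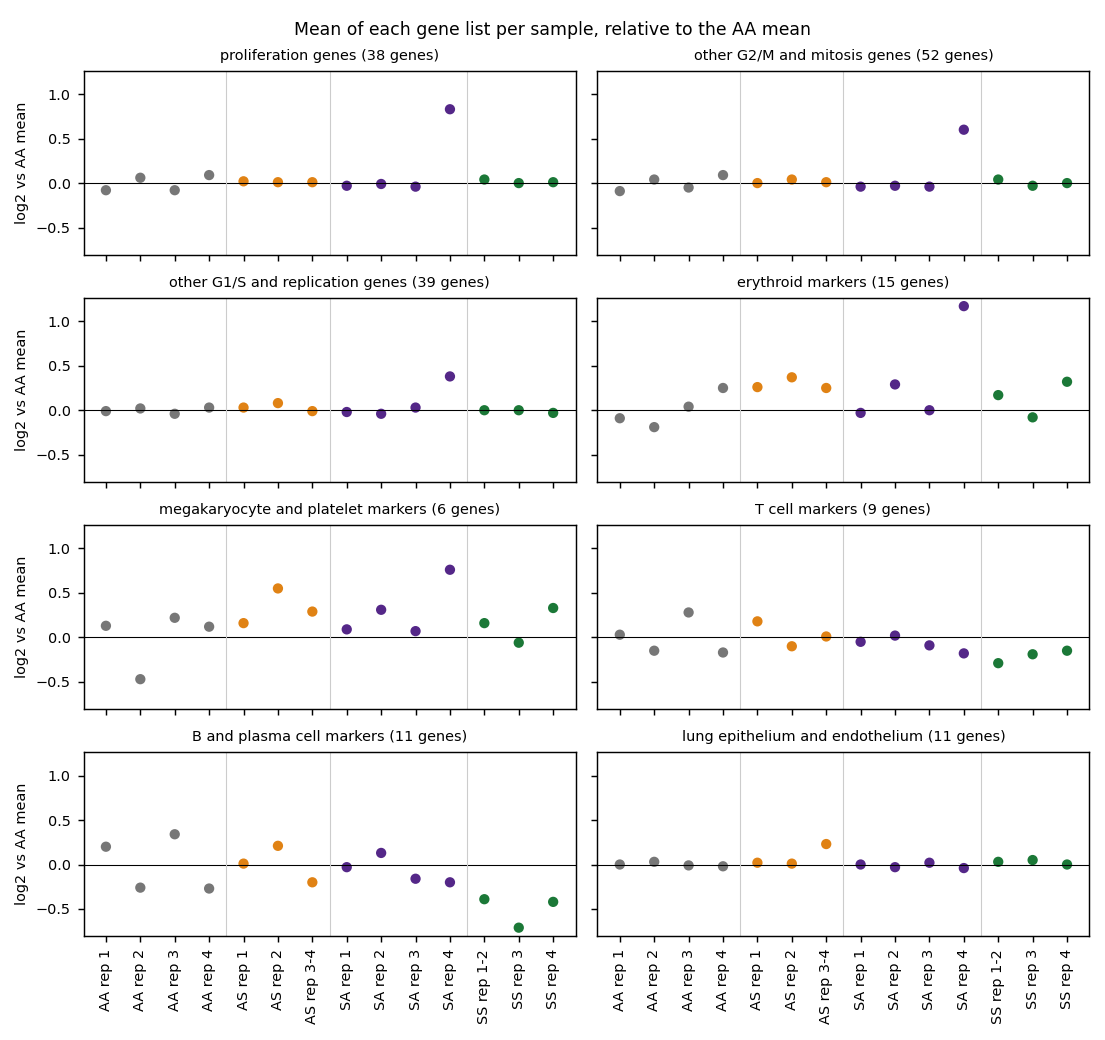
Each panel shows the mean log2 value of a gene list in each of the 14 samples, minus the mean of the 4 AA samples, coloured by group. SA replicate 4 stands high for the proliferation genes (0.83), other G2/M and mitosis genes (0.60), other G1/S and replication genes (0.38), erythroid markers (1.17) and megakaryocyte and platelet markers (0.76), and not for T cell, B cell or lung markers.

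AS minus AA, the contrast of adult SHS with air after an in-utero life in air, gave no shared direction among the proliferation genes. None of the 38 passed (limma, Benjamini-Hochberg over all probe sets, adjusted p under 0.05), where 1.55% of all 45037 probe sets did. Tpx2 and Mcm4 had an unadjusted p under 0.05, as did 9154 of all 45037 probe sets, and none of the 38 passed with an unmoderated test. The median difference was 0.01, with 19 genes higher and 19 lower, and 0.02 over all probe sets. The 95% intervals of the 38 genes ran from -0.70 (Nuf2) to 0.95 (Ube2c), and 22 lay within 0.5 of 0. Each AS sample was above each AA sample for 2 of the 38, Foxm1 and Tpx2 (8.97% of all genes), and below for 1, Mcm4 (7.56% of all genes). Without SA replicate 4, which enters the shared estimate of the spread, the differences were the same and the intervals ran from -0.40 to 0.51, with 37 within 0.5 of 0. Tpx2, Mcm4, Ttk and Kif20a then had an unadjusted p under 0.05, as did 9491 of all 45037 probe sets. None of the 38 then passed (limma, lowest adjusted p = 0.128).

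Tpx2 came closest. It read 6.05, 5.91, 6.06 and 6.07 in AA, 6.28, 6.27 and 6.34 in AS, 5.74, 6.19, 5.84 and 5.91 in SA, and 6.29, 6.17 and 6.20 in SS. All AS samples were above all AA samples, and SS overlapped SA through SA replicate 2. The difference was 0.27 ± 0.09 (SE, n = 3 and 4, limma adjusted p = 0.12) in AS against AA and 0.30 ± 0.09 (SE, limma adjusted p = 0.119) in SS against SA. It passed with all 16 arrays counted separately (limma adjusted p = 0.0476 and 0.0488), and in SS against SA without SA replicate 2 (limma adjusted p = 0.0259), and over all alternatives the adjusted p ran from 0.0476 to 0.282 and from 0.0259 to 0.832. At 1447519_x_at the differences were 0.32 and 0.08, and at 1428104_at 0.20 and -0.16. The other genes with the lowest p were Foxm1 (0.12) and Bub1b (0.16) on the higher side, and Mcm4 (-0.14), Mcm7 (-0.16) and Tyms (-0.19) on the lower side, with limma adjusted p from 0.226 to 0.467.

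SS minus SA, the contrast of adult SHS with air after SHS in utero, gave lower values for most of these genes, and SA replicate 4 set that direction. None of the 38 passed (limma), where 1.64% of all probe sets did, and none passed with an unmoderated test. An unadjusted p under 0.05 was found for 6 of the 38 and for 6520 of all 45037 probe sets. With all samples 34 genes were lower and 4 higher, with a median of -0.19. Without SA replicate 4, 15 were lower and 23 higher, with a median of 0.03. By role, the medians then stayed below 0 for replication licensing and fork (-0.09) and nucleotide supply (-0.07). In the other role groups they were 0.06 to 0.16. The median over all probe sets was 0.01 in both cases. Nusap1 went from -0.39 ± 0.31 to 0.03 ± 0.12 (SE) and Mki67 from -0.36 ± 0.30 to 0.06 ± 0.09 (SE). The intervals ran from -1.06 to 0.53 with it and from -0.45 to 0.54 without it, when 34 of the 38 lay within 0.5 of 0.

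The order of the samples was also compared. Each SS sample was below each SA sample for 8 of the 38 genes, Mcm3, Mcm4, Mcm5, Mcm6, Mcm7, Bub1, Cenpa and Ncapd2, where 11.6% of all genes showed that order, and above it for none (7.28% of all genes). Leaving out SA replicate 4 cannot undo that order, and 17.4% of all genes then show it, so it is no further support for these 8. Without that sample 8 others were higher in each SS sample than in each SA sample (Cdk1, Ccna2, Ccnb2, Ube2c, Nuf2, Ndc80, Kif20a and Prc1), where 12.9% of all genes were. Bub1 differed by -0.39 ± 0.11 (SE, n = 3 and 4, limma adjusted p = 0.0988) and by -0.27 ± 0.07 (limma adjusted p = 0.0949) without SA replicate 4. Cenpa differed by -0.31 ± 0.09 (SE, limma adjusted p = 0.124) and by -0.25 ± 0.09 (limma adjusted p = 0.2) without it. Both passed with array weights (limma adjusted p = 0.0474 and 0.0477), and over all alternatives the adjusted p ran from 0.0474 to 0.268 and from 0.0477 to 0.4. The other probe set of Bub1, 1438571_at, gave 0.01, and those of Cenpa gave -0.13 and -0.09. Mcm7 differed by -0.20 ± 0.09 (SE, limma adjusted p = 0.299), and on the higher side Foxm1 by 0.14 and Ndc80 by 0.06. Lymphocyte markers were read beside these genes. The mean of 11 B and plasma cell markers relative to AA was -0.39, -0.71 and -0.42 in SS and -0.03, 0.13, -0.16 and -0.20 in SA, without overlap. That of 9 T cell markers was -0.29, -0.19 and -0.15 in SS and -0.05, 0.02, -0.09 and -0.18 in SA, with overlap. None of either list passed in this contrast (limma), and Cd2 did without SA replicate 4. Their part in the values of the proliferation genes was not tested.

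SA minus AA, the contrast of SHS with air in utero for adults that breathed air, gave higher values for 37 of the 38 genes, again through SA replicate 4. None passed (limma), and 0% of all probe sets did, with 2808 at an unadjusted p under 0.05, among them 1 of the 38 genes, Bub1, and with 3 probe sets but none of the 38 past the threshold of an unmoderated test. The median was 0.15, and -0.02 without SA replicate 4, when 14 genes were higher and 24 lower. The lowest p-values belonged to Bub1 (0.26 ± 0.10, SE, n = 4 and 4, limma adjusted p = 0.755), Ttk (0.46) and Nusap1 (0.49) on the higher side and to Tpx2 (-0.10), the only gene on the lower side. Without SA replicate 4 these 4 had 0.14, 0.14, 0.07 and -0.10. No gene was higher in each SA sample than in each AA sample (2.22% of all genes were), and none was lower in each (1.65%). Without SA replicate 4 still none was higher (5.26%) and 1, Ndc80, was lower (3.79%). Without that sample all 38 intervals lay within 0.5 of 0, between -0.44 and 0.37.

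**Figure D4:**
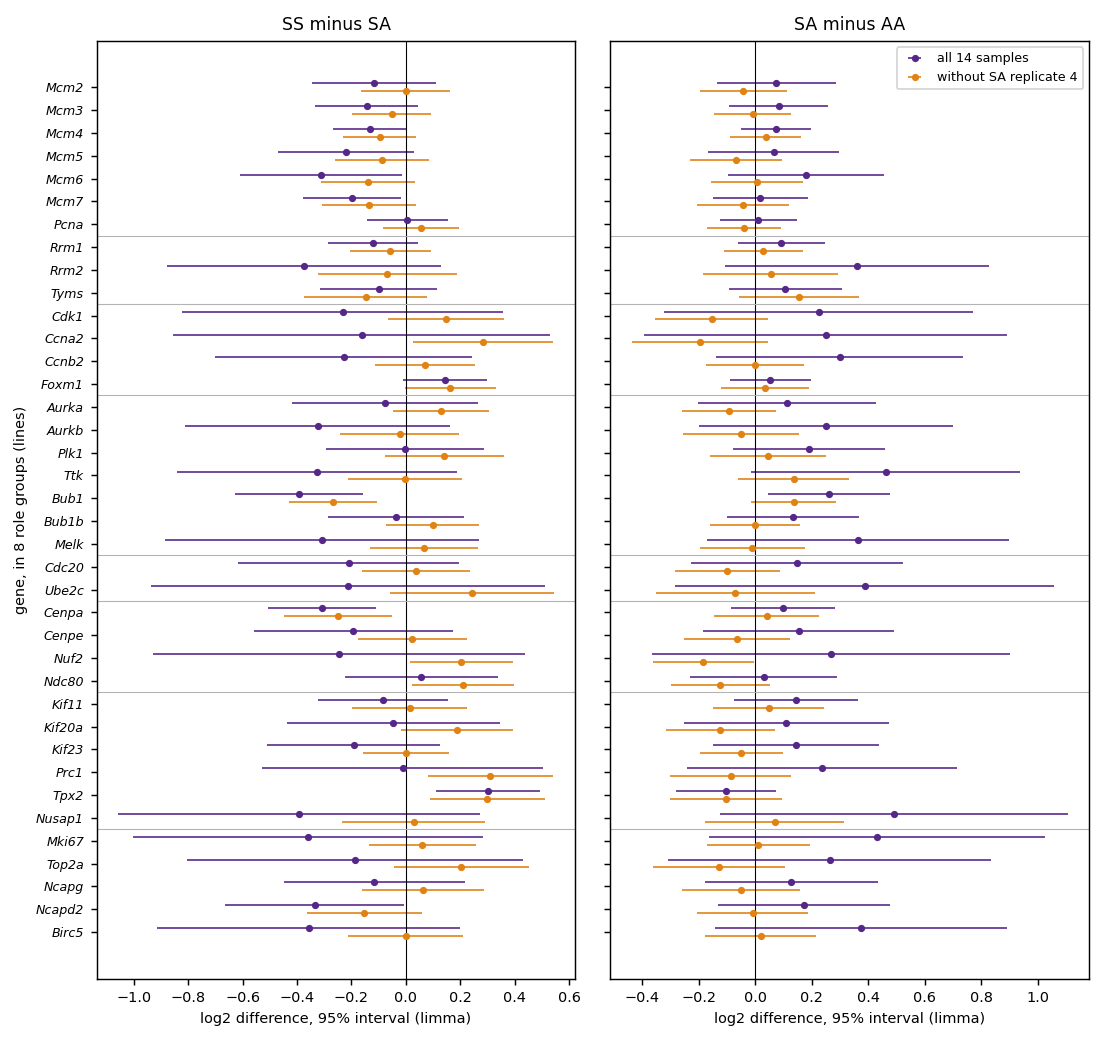
Points are log2 differences with 95% intervals from limma for the 38 genes, SS minus SA on the left and SA minus AA on the right, with all 14 samples and without SA replicate 4. Without that sample 26 of the 38 differences lie closer to 0 and 12 farther from it in SS minus SA, and 32 and 6 in SA minus AA, and the standard errors are smaller for 35 and 34 genes.

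SS minus AS, the contrast of SHS with air in utero for adults that breathed SHS, does not involve the SA samples, and the proliferation genes showed no shared direction. None of the 38 passed (limma), where 0.968% of all probe sets did, and 0 passed with an unmoderated test. An unadjusted p under 0.05 was found for 0 of the 38 and for 6132 of all 45037 probe sets. The median was 0.00, with 19 higher and 19 lower. The lowest p-values were those of Tyms (0.19), Kif20a (0.26) and Mcm4 (0.08) on the higher side and Cenpa (-0.18 ± 0.10, SE, n = 3 and 3, limma adjusted p = 0.443), Mcm3 (-0.11) and Mcm6 (-0.12) on the lower side. Each SS sample was above each AS sample for 3 of the 38, Tyms, Cdc20 and Kif20a (8.53% of all genes), and below for 5, Mcm3, Mcm6, Aurkb, Cenpa and Kif23 (9.99% of all genes). The intervals ran from -0.83 to 0.77, and 22 of the 38 lay within 0.5 of 0. The fit shares 1 estimate of the spread over the groups, so SA replicate 4 bears on these intervals too. Without it they ran from -0.38 to 0.46, all 38 within 0.5 of 0, with the same differences and a lowest limma adjusted p of 0.251. Kif20a alone of the 38 then had an unadjusted p under 0.05, where 6324 of all 45037 probe sets did.

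The effect of adult SHS was compared between the 2 in-utero histories as (SS minus SA) minus (AS minus AA). None of the 38 passed (limma), where 0.131% of all probe sets did, and 0 passed with an unmoderated test. An unadjusted p under 0.05 was found for 1 of the 38 and for 4105 of all 45037 probe sets. The median of -0.20, with 32 genes lower and 6 higher, became 0.03 without SA replicate 4, with 13 lower and 25 higher. Cenpa (-0.28 ± 0.13, SE, limma adjusted p = 0.548), Bub1 (-0.27) and Ttk (-0.52) were lowest by p, and Tyms (0.09), Kif20a (0.15) and Pcna (0.02) led the higher side. Of the 5 contrasts, those that involve the same group share its samples and are not independent of each other.

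Among genes that hold the cycle back, 2 changed. Of 7 CDK inhibitors, Cdkn1a rose and Cdkn2c fell in SS against SA, while none passed in AS against AA, SA against AA or SS against AS, and the list median in SS against SA was -0.17. Cdkn1a encodes p21, which p53 induces, and read 10.55, 10.62, 10.90 and 10.98 in AA, 11.11, 10.89 and 12.03 in AS, 10.82, 9.80, 10.13 and 10.79 in SA, and 11.90, 12.12 and 11.61 in SS. Each SS sample was above each SA sample, and AS overlapped AA, with the averaged AS replicates 3 and 4 the highest of AS. The difference was 1.49 ± 0.27 (SE, n = 3 and 4, limma adjusted p = 0.0109) in SS against SA and 0.58 ± 0.27 (SE, limma adjusted p = 0.24) in AS against AA, and the difference between these effects did not pass (0.91 ± 0.38, SE, limma adjusted p = 0.475).

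Cdkn2c encodes p18, an inhibitor of CDK4 and CDK6. It read 10.55, 10.43, 10.52 and 10.42 in AA, 10.50, 10.50 and 10.54 in AS, 10.79, 10.83, 10.79 and 10.81 in SA, and 10.34, 10.37 and 10.37 in SS. SA was above every other sample and SS below every other one, and SA replicate 4 did not stand out. It fell by 0.45 ± 0.06 (SE, limma adjusted p = 0.00141) in SS against SA, and the difference between the effects of adult SHS in the 2 histories was -0.48 ± 0.08 (SE, limma adjusted p = 0.0278). Both genes were also called without SA replicate 4. Of 39 other G1/S genes, 52 other G2/M genes and 5 G1 cyclins and kinases, none passed in any of the 5 contrasts (limma). Their medians in SS against SA were -0.12, -0.13 and 0.03, and 0.02, 0.04 and 0.04 without SA replicate 4.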

How the data were processed

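Total RNA from left lungs was measured on 16 Affymetrix mouse 430 2.0 arrays, 4 per group. The deposited values are the authors' log2 values per probe set. How they corrected background, normalized and summarised them is not stated in the sources used here. Per the submitters' processing notes they used limma, version unstated. Array precision is limited by the number of arrays. Of 45101 probe sets, 64 controls were left out and 45037 were tested. Probe sets were named from GEO's platform annotation, with symbols updated through a RefSeq gene table: 34945 had 1 gene symbol, 932 had several and 9160 had none, and genes were named only from the first kind.

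Within each group, each pair of arrays was compared by its difference (root mean square) at the 300 probe sets that vary most, relative to that at 3000 stable ones, all with a mean above 9. This ratio was 1.24 and 1.35 for the pairs that were averaged and 2.84 to 5.96 for the other 22 pairs. At the stable probe sets alone, AS replicates 3 and 4 differed from AS replicates 1 and 2 by 0.2072 to 0.2571. No other pair there differed by more than 0.1319. The average of AS replicates 3 and 4 also had the lowest array weight, 0.265. A single limma 3.58.1 model (R 4.3.3) with a mean per group was fitted to 14 samples, with 5 contrasts, eBayes and Benjamini-Hochberg adjustment over all probe sets, and an adjusted p under 0.05 was called. P-values measure the spread between these samples. The model was checked on simulated data with known changes. The simulation held no outlying sample and no genes that move together, so it does not bear on the height of SA replicate 4.

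The genes and lists were chosen with earlier results of these data known. Genes past the threshold are named; failing that, the 3 with the lowest p in each direction are given as values. In each role group, the gene with the highest mean and the one with the largest SD are given by sample, and from the other lists up to 2 genes called or most changed. Same-numbered samples of different groups had correlations of their deviations from -0.157 to 0.251 over 24 pairs (median 0.027), so the numbers were not taken to pair them. Alternatives covered the averaging, normalization, filter, probe set choice, weights, moderation, samples in the fit and leaving out each sample.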

Additional observations from a re-analysis of the deposited data

Results flagged for a closer look

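In groups of 4 samples, a sample was marked when its gap to the nearest other sample, divided by the range of the group, was above Dixon's critical value at the 95% level. Only AA and SA have 4 samples, and 25 of the 78 groups of values tested were marked. SA replicate 4 accounts for 21 of them, all high. Its height was known before the rule was applied, and the genes share the same samples. The marks are therefore not independent, and their number adds no evidence beyond the values themselves. It stood far from the other 3 SA samples in the mean of the 38 proliferation genes relative to AA (0.83) and in 20 of the genes. Among the replication and nucleotide genes these were Mcm3 at 8.54, Mcm5 at 8.71, Mcm6 at 8.89, Mcm7 at 9.80 and Rrm2 at 8.88. Among the genes of mitotic entry and exit they were Cdk1 at 8.54, Ccna2 at 8.74, Ccnb2 at 8.01, Melk at 6.85, Cdc20 at 9.25 and Ube2c at 8.88. Among the genes of the kinetochore, spindle and chromosomes they were Cenpe at 6.76, Nuf2 at 7.27, Ndc80 at 5.32, Prc1 at 7.98, Nusap1 at 9.21, Mki67 at 9.42, Top2a at 9.03, Ncapg at 5.56 and Birc5 at 7.39.

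The other 4 marks were in AA. Mcm7 was low in AA replicate 3 (9.48), Cenpa was high in AA replicate 2 (7.92), Cenpe was high in AA replicate 4 (6.07) and Tpx2 was low in AA replicate 2 (5.91). How often the rule marks other genes was not counted, so these 4 marks are given as values only.

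The effect of adult SHS differed between the in-utero histories for Cdkn2c, the gene of the CDK inhibitor p18. The difference between the effects was -0.48 (limma adjusted p = 0.0278).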

How the results depend on the processing

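None of the 38 genes was called in any contrast in the reported analysis, and 4 results moved off 0. With all 16 arrays counted separately, 1 gene (Tpx2) was called in AS against AA and 1 in SS against SA. Array weights gave 2 (Bub1 and Cenpa) in SS against SA. Leaving out samples 1 at a time gave 0 to 1 in SS against SA, the 1 being Tpx2 without SA replicate 2.

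The number of probe sets called over the whole array moved more, in the order AS minus AA, SS minus SA, SS minus AS and the interaction. All 16 arrays as separate samples gave 3565, 1345, 2214 and 330, and adding the replicate block gave 3761, 1268, 2364 and 529, with 0 in SA minus AA and no proliferation gene called. With 1 probe set per gene there were 181, 470, 137 and 27, and with the mean over a gene's probe sets 232, 415, 114 and 20, where fewer features were tested. An unmoderated test gave 205, 302, 101 and 7, and 3 in SA minus AA. Array weights gave 2154 in SS minus SA, 1181 in SS minus AS and 205 in the interaction. Fitting only the groups compared gave 47 in AS minus AA and 131 in SS minus AS, and a further quantile normalization gave 89 in the interaction. Leaving out samples 1 at a time gave 185 (without AA replicate 2) to 905 in AS minus AA, 171 (without SS replicate 3) to 1014 in SS minus SA, 136 (without SS replicate 4) to 507 in SS minus AS, 23 (without SS replicate 4) to 115 in the interaction, and 0 in SA minus AA. The counts also moved by more than 1.5 times in AS minus AA without AA replicates 1 (381) or 4 (447), AS replicates 3 and 4 (381), SS replicates 1 and 2 (399) or SS replicate 3 (449), in SS minus SA without SA replicates 2 (421) or 3 (364), SS replicates 1 and 2 (288) or SS replicate 4 (429), and in SS minus AS without SS replicates 1 and 2 (150) or 3 (169). In the interaction 11 of the 14 omissions did so. Unless stated, the cause was not tested.

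The median over the 38 genes ran, over the samples left out, from -0.03 to 0.05 in AS minus AA, from -0.28 to 0.03 in SS minus SA, from -0.02 to 0.23 in SA minus AA, from -0.01 to 0.02 in SS minus AS and from -0.29 to 0.03 in the interaction. In SS minus SA, SA minus AA and the interaction, the sign changed when SA replicate 4 was left out and with no other sample. The mean of SA replicate 4 relative to AA was 0.75 to 0.84 under 4 alternatives. The size of difference that 3 or 4 samples a group leave undetected varies by gene, as the printed intervals do.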

Other observations

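Beyond the cell cycle, other genes stood apart in SA replicate 4, and they were chosen after their values were seen. Apol11b had the largest distance of all named genes, at 8.02 against 3.47 to 5.93 in the other 13 samples. Rsad2, an interferon-induced antiviral gene, was at 12.13 against 8.55 to 10.74, and Eln, the gene of elastin, at 11.24 against 9.22 to 10.63. Genes of muscle and heart went both ways. Acta1, skeletal muscle actin, was at 9.29 against 6.54 to 7.32 and Nppb, a natriuretic peptide, at 6.82 against 5.24 to 5.85, while Tcap, a protein of the muscle sarcomere, was at 7.56 against 8.04 to 9.03. Slc25a37, which carries iron into mitochondria for haem synthesis, was at 11.53 against 9.31 to 10.54.

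Some genes were lowest there. H3f3b, a gene of histone H3.3, was at 6.23 against 7.12 to 9.23, Bpifa1 of airway secretion at 10.01 against 10.69 to 12.29, and Adipoq, the adiponectin gene of fat cells, at 6.21 against 6.39 to 8.01. The early response genes Egr1 (10.75 against 10.46 to 14.15) and Fos (11.03 against 10.61 to 14.14) were within the range of the others. These are values of 1 sample and carry no test.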
